A study of Mus musculus with 6 samples.

Results

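Hlf, Mecom, Erg, Fli1, Mn1, Hhex, Sox4, Myb, Msi2 and Cd34 are 10 genes of blood stem and progenitor cells, taken by symbol from a count table of 49585 mouse gene IDs, and all 10 were in it. They were followed in mouse acute myeloid leukemia (AML) whose driver is KMT2A-MLLT3, a fusion protein that joins a histone methyltransferase to a partner of elongation complexes. Marrow cells of mice with this AML received DOT1L by transduction, the histone H3 lysine 79 methyltransferase that MLLT3 is known to recruit, and populations with high and with low expression were sorted. The labels formed 3 groups of 2 libraries: DOT1L High (high overexpression), DOT1L Low (low overexpression) and NT. The labels do not expand the abbreviation NT, and the NT titles name no DOT1L. Each group had 1 library of K3174 and 1 of K3117, read here from the titles as 2 leukemias. All cells carried the fusion, grew with interleukin 3, interleukin 6 and stem cell factor, and gave RNA 3 days after the sort. The vector, the species of the introduced DOT1L, the sort marker, the handling of NT and whether the K numbers are separate mice were not given in the sources used here. Where they are not, the p-values cover only how these libraries scatter, which may be technical.

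These genes have different roles in the stem and progenitor programme. HLF, of the PAR bZIP family, and MECOM, a zinc finger protein also called EVI1, are known for high activity in stem cells and for loss as cells mature. ERG and FLI1 are ETS factors that share binding sites with RUNX1, TAL1, LMO2, LYL1 and GATA2, a set often called the heptad. MN1 is a transcriptional coregulator, HHEX a homeobox protein, SOX4 an HMG box factor and MYB a factor needed by proliferating progenitors. MSI2 binds RNA and is known to sustain stem cells, and CD34 is a surface sialomucin used to sort progenitors. Mecom, Myb and Mn1 are well known in leukemias with KMT2A fusions or other drivers.

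The windows upstream of the transcription starts of Hlf, Mecom, Cd34 and Sox4 are shown because these 4 members had the largest differences between High and NT. Each window holds the 250 bases before a RefSeq start on GRCm38.p6, written 5′ to 3′ on the gene's strand, and capitals mark a motif match. The Hlf window is chr11:90390918-90391167 on the minus strand. Mecom, on the minus strand, has an upstream start with the window chr3:30509760-30510009 and a downstream start with the window chr3:30013205-30013454, and the deposited gene counts add the transcripts of both. Cd34 lies on the plus strand with the window chr1:194938571-194938820, and Sox4 on the minus strand with chr13:28953700-28953949.
Hlf: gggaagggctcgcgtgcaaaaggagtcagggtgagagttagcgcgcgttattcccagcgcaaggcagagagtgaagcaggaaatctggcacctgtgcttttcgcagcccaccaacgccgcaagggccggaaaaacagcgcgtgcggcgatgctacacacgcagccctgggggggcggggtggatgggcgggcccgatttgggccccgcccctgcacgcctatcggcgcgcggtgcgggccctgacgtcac
Mecom upstream start: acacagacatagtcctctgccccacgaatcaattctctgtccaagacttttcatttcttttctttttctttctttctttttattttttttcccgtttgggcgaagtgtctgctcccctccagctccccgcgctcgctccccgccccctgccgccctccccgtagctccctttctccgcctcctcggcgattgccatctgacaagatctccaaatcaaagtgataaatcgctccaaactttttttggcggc
Mecom downstream start: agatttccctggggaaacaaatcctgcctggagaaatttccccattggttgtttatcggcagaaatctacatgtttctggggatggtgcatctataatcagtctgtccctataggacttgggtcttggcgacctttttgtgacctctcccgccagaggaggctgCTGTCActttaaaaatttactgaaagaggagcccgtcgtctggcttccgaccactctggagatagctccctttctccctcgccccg
Cd34: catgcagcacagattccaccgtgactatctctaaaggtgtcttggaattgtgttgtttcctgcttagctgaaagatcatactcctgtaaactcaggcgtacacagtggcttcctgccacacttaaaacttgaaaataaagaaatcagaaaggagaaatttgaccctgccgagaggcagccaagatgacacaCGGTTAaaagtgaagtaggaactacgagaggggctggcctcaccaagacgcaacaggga
Sox4: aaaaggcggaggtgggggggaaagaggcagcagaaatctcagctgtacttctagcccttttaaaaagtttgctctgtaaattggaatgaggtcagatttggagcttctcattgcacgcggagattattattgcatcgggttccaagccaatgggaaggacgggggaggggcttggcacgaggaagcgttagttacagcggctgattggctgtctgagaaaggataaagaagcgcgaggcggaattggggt

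The windows differed in base composition. Hlf had 67.2% G and C with 26 CpG dinucleotides, whereas the Cd34 window had 46.4% and 6, beside medians of 52.4% and 6 over 32851 RefSeq promoters. The upstream and downstream Mecom windows held 14 and 8 CpG, and the Sox4 window held 11. Of the other members with an entry, Myb had the richest window, with 81.2% G and C and 40 CpG. Fixed letters were searched on both strands: CCGGAAG for ETS factors, TAACNG for MYB, AGATAAG for GATA factors, TGACAG for MEIS factors and TTACGTAA for PAR bZIP factors. Among all promoters, 6.91% held the ETS letters, 19.8% the MYB letters, 2.74% the GATA letters, 15.9% the MEIS letters and 0.113% the PAR bZIP letters. Of the windows printed, Cd34 held the MYB letters on its reverse strand and the downstream Mecom window held the MEIS letters on its reverse strand. No match overlapped another. The windows of Hlf, of Sox4 and of the upstream Mecom start held none of the 5 sets of letters.

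Sequencing gave between 22908445 and 33265848 counts per library. Levels are given as CPM, the counts scaled to library size, and as RPKM, which also divides by exon length, where genes are set side by side. Dot1l itself, the check of the labels, had 158.0, 152.0 and 136.4 CPM in K3174 and 127.8, 183.7 and 149.8 CPM in K3117 for NT, Low and High. Its level did not separate the labels (log2 fold change of High over NT -0.00 ± 0.15, SE, edgeR adjusted p = 1), and whether reads of the introduced DOT1L were counted under the mouse gene was not given. NT, Low and High are therefore used as names of labels throughout. In bulk RNA, fewer cells of a type and less RNA per cell cannot be told apart, which holds for every difference reported here.

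High libraries had less Hlf, Mecom, Cd34, Sox4 and Msi2 than NT libraries and more Fli1, while Erg, Hhex and Myb did not pass the test and Mn1 was too low to test. Of the 9 members tested, 5 fell and 1 rose at an adjusted p under 0.05 (quasi-likelihood test of edgeR, blocked by leukemia and adjusted over 15812 genes). Over all genes tested, 7.32% fell and 10.0% rose by the same rule. The median log2 fold change was -0.55 over the 9 members and -0.01 over all genes. Another count, of members whose High and NT libraries did not overlap, gave 6 lower (Hlf, Mecom, Erg, Sox4, Msi2 and Cd34) and 2 higher (Fli1 and Myb), where 25.3% of all genes lay in each direction. Without the leukemia block no member passed, with adjusted p between 0.077 for Fli1 and 0.28 for Mecom among those called, while the log2 fold changes of those 6 kept their sign. Of all calls for High over NT, 57.8% were higher in High, against 49.1% when libraries were scaled by their totals alone and 43.9% with upper quartile factors, and the calls of the 6 members held under both.

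**Figure D1:**
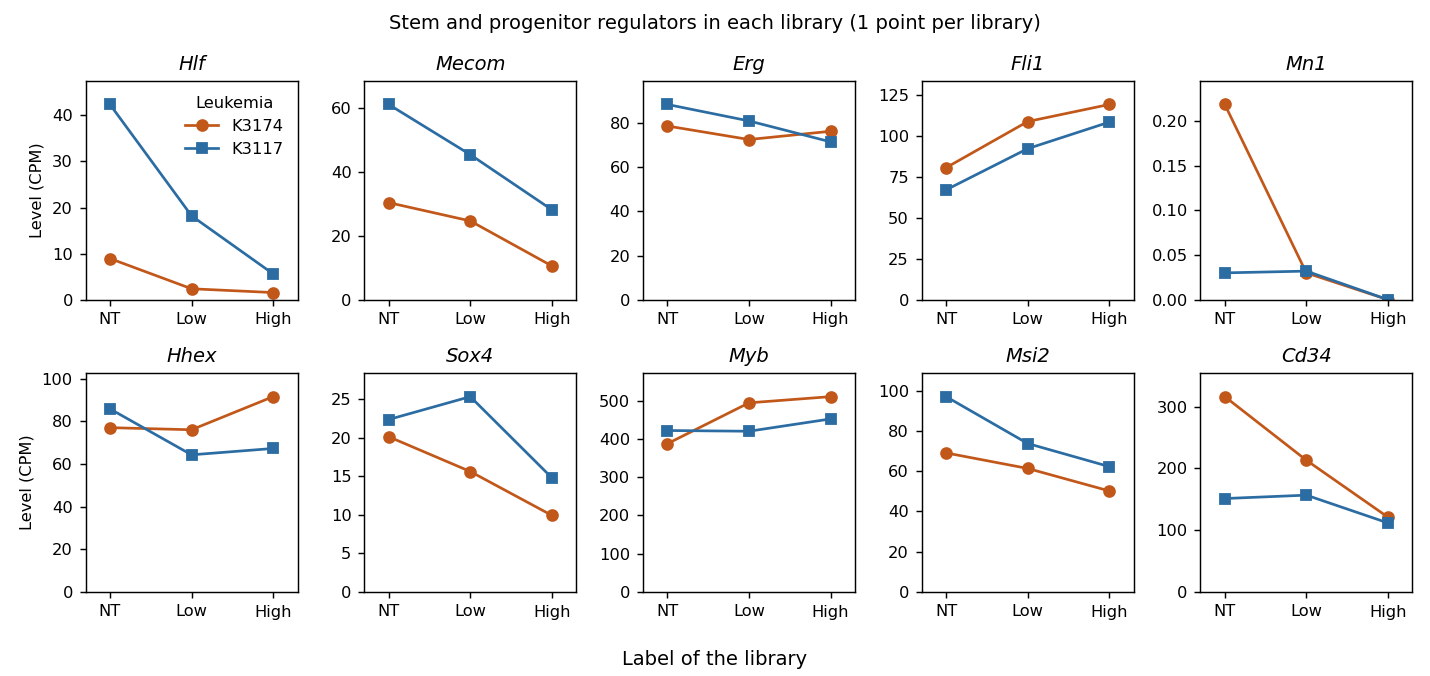
Level of each of the 10 genes in CPM (vertical axes, each from 0) for the labels NT, Low and High, with 1 point per library and a line joining the libraries of K3174 (circles) or K3117 (squares). Hlf and Mecom stood lowest in High within either leukemia, Fli1 stood highest there, and the Mn1 axis ends below 0.3 CPM.

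Hlf, the PAR bZIP factor, changed most among the members. It lies on chromosome 11, 90336536 to 90390895 of GRCm38, minus strand. In K3174 it had 8.93, 2.37 and 1.55 CPM in NT, Low and High, from 204, 79 and 46 counts. In K3117 the levels were 42.4, 18.2 and 5.60 CPM, from 1409, 568 and 126 counts. The order NT, Low, High held in either leukemia, and both High libraries lay below both NT libraries, while the level of K3117 in Low was above that of K3174 in NT. Hlf was 6.82-fold lower in High than in NT (log2 fold change -2.77 ± 0.25, SE; edgeR adjusted p = 1.9e-05), the 168th lowest fold change of the 15812 genes. It was also the 1 member that fell in Low, at 2.81-fold below NT (log2 -1.49 ± 0.22; edgeR adjusted p = 0.0038), where 1.29% of all genes fell and 2.05% rose. Between the sorted populations it was again lower in High, by a log2 fold change of -1.28 ± 0.25 (edgeR adjusted p = 0.011). The last call rested on K3117: its adjusted p was 0.16 without the High library of K3117 and 0.45 without the Low library of K3117.

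Mecom, the zinc finger factor, fell in High, both against NT and against Low. It spans chromosome 3, 29951296 to 30548008, minus strand. Its levels in NT, Low and High were 30.4, 24.6 and 10.6 CPM in K3174 and 61.1, 45.4 and 28.1 CPM in K3117. High was the lowest library of either leukemia, the 2 High libraries lay below the 2 NT libraries, and the Low libraries overlapped both other labels. High was 2.47-fold below NT (log2 -1.30 ± 0.16; edgeR adjusted p = 0.00014) and below Low by a log2 fold change of -0.94 ± 0.16 (edgeR adjusted p = 0.0045). Low over NT, at -0.36 ± 0.15, did not pass (edgeR adjusted p = 0.32). Within leukemias the step of High minus Low in log2 CPM was -1.22 in K3174 and -0.69 in K3117. Leaving out either library of K3174 labelled High or Low ended the call between them (edgeR adjusted p = 0.06 and 0.052). In High over Low, 1.35% of all genes fell and 4.12% rose.

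Of the ETS pair, Fli1 rose in High over NT and Erg did not pass the test. Erg, on chromosome 16 from 95359169 to 95586593, had 78.6, 72.5 and 76.2 CPM in NT, Low and High of K3174 and 88.4, 80.9 and 71.4 CPM in K3117. All 6 libraries lay between 71.4 and 88.4 CPM. The High and NT libraries did not overlap, though by little, and High over NT was -0.17 ± 0.12 (edgeR adjusted p = 0.41), with a 95% interval of the fold from 0.735 to 1.07. Fli1, on chromosome 9 from 32422204 to 32542861, had 80.6, 108.8 and 119.2 CPM in K3174 and 67.0, 92.2 and 108.4 CPM in K3117. Its libraries followed the order NT, Low, High in either leukemia, with NT below all others. Fli1 was 1.55-fold higher in High than in NT (log2 0.63 ± 0.12; edgeR adjusted p = 0.0028). Without the High library of K3117 the adjusted p was 0.054, with a log2 fold change of 0.56.

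For Low over NT, Fli1 had a log2 fold change of 0.45 ± 0.12 and an edgeR adjusted p of 0.066. It passed for Low with DESeq2 (0.031), with no filter on low counts (0.018) and without the NT library of K3117 (0.039) or of K3174 (0.019). Per length, the ratio of Erg to Fli1 within a library was 0.981, 0.671 and 0.643 in NT, Low and High of K3174 and 1.33, 0.883 and 0.663 in K3117. The ratio was thus highest in NT and lowest in High in either leukemia, and the leukemias, apart in NT, were close in High. No test was run on the ratio.

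**Figure D2:**
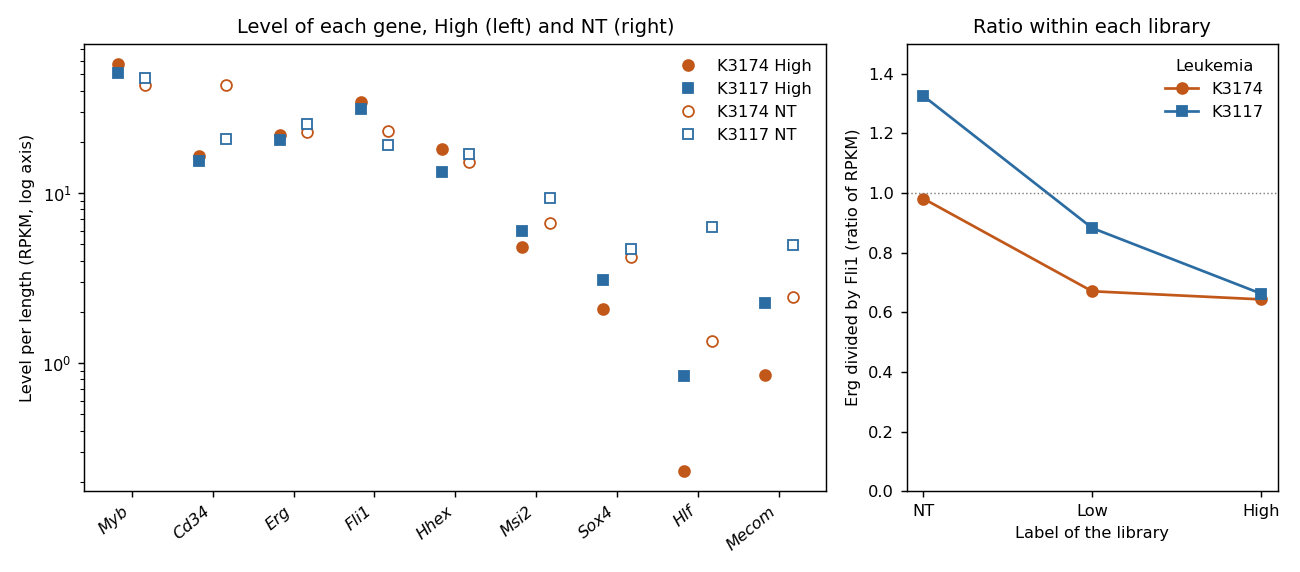
On the left, the level per length (RPKM, log axis) of the 9 members with counts in every library, High (filled) left of NT (open), with 1 point per library and K3174 as circles and K3117 as squares. On the right, the ratio of Erg to Fli1 RPKM in each library by label, which in High was 0.643 in K3174 and 0.663 in K3117.

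Mn1, the coregulator, was near absent. It had 5, 1 and 0 counts in NT, Low and High of K3174 and 1, 1 and 0 counts in K3117. A count of 0 allows up to 3 counts, which is 0.101 CPM in the High library of K3174 and 0.133 CPM in that of K3117. With so few counts in every library no fold change is given.

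Hhex and Myb, the homeobox and MYB factors, kept high levels under every label. Hhex, on chromosome 19 from 37434810 to 37440731, had 77.1, 76.1 and 91.6 CPM in NT, Low and High of K3174 and 85.9, 64.3 and 67.3 CPM in K3117. Its highest library was High in K3174 and NT in K3117, so the leukemias went opposite ways. High over NT was -0.05 ± 0.15 (edgeR adjusted p = 0.86; 95% interval of the fold from 0.770 to 1.20). Myb, on chromosome 10 from 21124935 to 21160984, had 387.3, 494.1 and 510.2 CPM in K3174 and 421.7, 419.8 and 452.0 CPM in K3117. High exceeded NT in either leukemia, by 0.40 log2 CPM in K3174 and 0.10 in K3117. The fitted difference of 0.25 ± 0.13 did not pass (edgeR adjusted p = 0.24; 95% interval of the fold from 0.978 to 1.44). Without the NT library of K3117 it was 0.41, with an adjusted p of 0.014.

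Sox4, the HMG box factor, fell in High, both against NT and against Low. It is a gene of 1 exon on chromosome 13, 28948919 to 28953713. Its levels in NT, Low and High were 20.1, 15.6 and 9.93 CPM in K3174 and 22.4, 25.3 and 14.8 CPM in K3117. The High libraries were the lowest of either leukemia, and the Low libraries lay on either side of NT. High was 1.75-fold below NT (log2 -0.81 ± 0.18; edgeR adjusted p = 0.0077) and below Low by -0.72 ± 0.18 (edgeR adjusted p = 0.036). Low over NT was -0.09 ± 0.17 (edgeR adjusted p = 0.95). The call for High over Low ended without the High or Low library of either leukemia, with adjusted p of 0.20 (High of K3174), 0.058 (Low of K3174), 0.05 (High of K3117) and 0.57 (Low of K3117).

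Msi2, the RNA-binding protein, fell in smaller steps. It lies on chromosome 11, 88339382 to 88718513, and had 69.0, 61.3 and 50.1 CPM in NT, Low and High of K3174 and 97.0, 73.7 and 62.2 CPM in K3117. The order NT, Low, High held in either leukemia, and both High libraries lay below both NT libraries. High was 1.47-fold below NT (log2 -0.55 ± 0.12; edgeR adjusted p = 0.0085). The adjusted p was 0.097 without the High library of K3117 and 0.058 without that of K3174. Low over NT was -0.29 ± 0.12 (edgeR adjusted p = 0.33), and High over Low was -0.27 ± 0.12 (0.33).

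Cd34, the surface sialomucin, fell in High over NT. It lies on chromosome 1, 194938819 to 194961279, and had 316.3, 213.2 and 121.0 CPM in NT, Low and High of K3174 and 151.2, 156.7 and 111.7 CPM in K3117. The NT libraries were far apart, whereas the High libraries were close. High was 1.89-fold below NT (log2 -0.92 ± 0.18; edgeR adjusted p = 0.0045), with log2 CPM differences of -1.39 in K3174 and -0.44 in K3117. Leaving out 1 library at a time gave log2 fold changes between -1.30 and -0.52, all past the threshold. Low over NT was -0.28 ± 0.18 (edgeR adjusted p = 0.64), but without the NT library of K3117, which leaves K3174 as the base, it was -0.64 (0.00046), and without that of K3174 it was 0.14 (0.71). High over Low was -0.64 ± 0.18 (edgeR adjusted p = 0.07), and it passed with library totals alone (0.048), upper quartile factors (0.036) and DESeq2 (0.016).

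**Figure D3:**
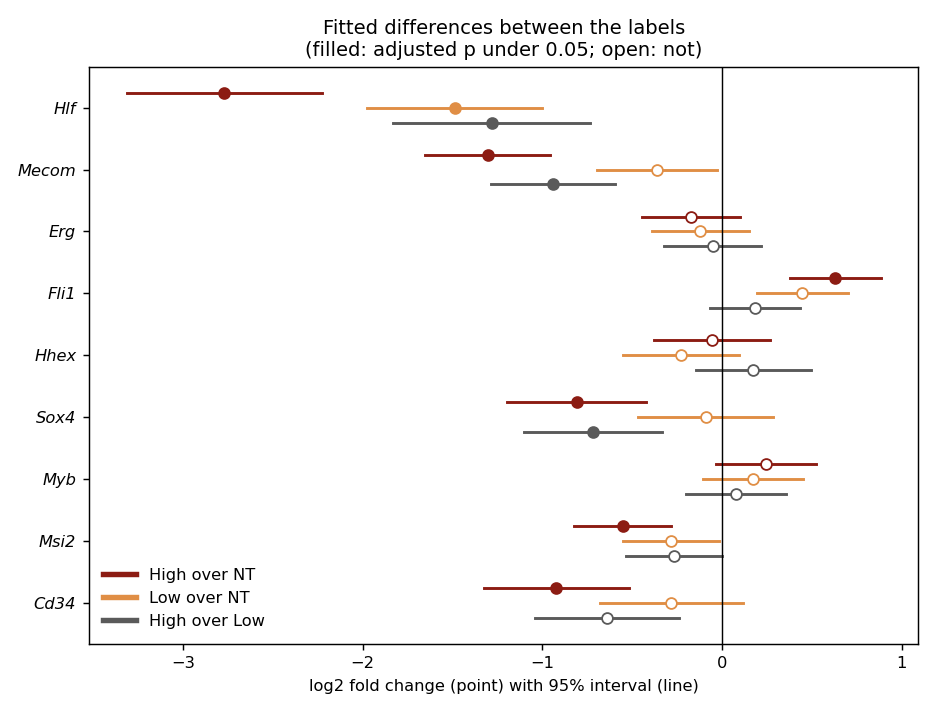
Log2 fold change (points) with its 95% interval (lines) of the 9 members tested for High over NT, Low over NT and High over Low, filled where the edgeR adjusted p was under 0.05. Hlf lay farthest left, at -2.77 for High over NT, and Fli1 was the 1 filled point right of 0.

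Side by side per length, Myb had the highest mean level of the members under every label. In High its mean was 53.9 ± 4.61 RPKM (SD, n = 2, as for the other means here), followed by Fli1 at 32.6 ± 2.19, Erg at 21.3 ± 0.98, Cd34 at 16.0 ± 0.90 and Hhex at 15.7 ± 3.40 RPKM. Cd34 and Hhex did not differ there beyond their spread. Below them came Msi2 at 5.40 ± 0.82, Sox4 at 2.58 ± 0.72, Mecom at 1.56 ± 1.00 and Hlf at 0.535 ± 0.43 RPKM. Sox4, Mecom and Hlf were within reach of each neighbour's spread, which is taken across the leukemias. Within either leukemia they kept this order in High, at 2.07, 0.850 and 0.232 RPKM in K3174 and 3.09, 2.26 and 0.838 RPKM in K3117. In NT, Myb at 45.3 ± 2.73 RPKM was followed by Cd34 at 32.1 ± 16.0, Erg at 24.1 ± 1.99, Fli1 at 21.2 ± 2.75 and Hhex at 16.1 ± 1.23 RPKM. There Myb and Cd34, which were level in K3174 at 43.4 RPKM, did not differ beyond their spread, and neither did Cd34 and Erg or Erg and Fli1. Msi2 had 7.98 ± 1.90, Sox4 4.43 ± 0.33, Hlf 3.84 ± 3.54 and Mecom 3.68 ± 1.75 RPKM in NT, and Sox4, Hlf and Mecom overlapped. Ranked by these means, Cd34 stood 4 in High and 2 in NT, but in NT its level lay above that of Erg in K3174 and below it in K3117.

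The leukemias differed in several of the same genes. Over all labels, Hlf was 5.21-fold lower in K3174 than in K3117 (log2 -2.38 ± 0.20; edgeR adjusted p = 1.5e-05) and Mecom 2.13-fold lower (log2 -1.09 ± 0.13; 0.0002). Msi2 was also lower in K3174 (log2 -0.36 ± 0.10; edgeR adjusted p = 0.046), and Cd34 was higher there (log2 0.54 ± 0.15; 0.041). These 3 lower and 1 higher of 9 stand beside 6.32% lower and 3.05% higher among all genes. The Msi2 call was lost whenever any 1 library was left out (edgeR adjusted p between 0.051 and 0.18), and that of Cd34 without either Low library. Of the 12 neutrophil markers (such as Ngp, Ltf and Elane), 10 were also higher in K3174 than in K3117 by this test, as were 7 of 8 mast cell and basophil markers, while 6 of 10 monocyte and macrophage markers were lower, and their part in these differences was not tested. Whether the course over the labels differed between K3174 and K3117 was tested as an interaction with the labels coded 0, 1 and 2. No member passed, and 0.00632% of all genes did. Cd34 had the smallest p, with a slope per label step that was -0.48 ± 0.12 log2 lower in K3174 (edgeR adjusted p = 0.49), and Hhex had a slope that was 0.30 ± 0.12 higher there (edgeR adjusted p = 0.53), the 2 members with an unadjusted p under 0.05. With no filter on low counts the adjusted p of Cd34 was 0.0039, and with DESeq2 it was 0.06.

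Related genes, taken from fixed lists, went both ways. Of the 5 heptad partners of ERG and FLI1, Runx1 rose in High over NT (log2 0.42 ± 0.12; edgeR adjusted p = 0.04), Lmo2 fell (-0.50 ± 0.15; 0.038) and 3 did not pass. No heptad partner rose with library totals alone, with upper quartile factors or without the block. Leaving out any single library other than NT of K3117 also left no partner higher. No partner fell without the NT or the High library of K3174 or without the block. Of 15 other stem cell nuclear factors tested, 4 fell and 0 rose, among them Gfi1b (-2.16 ± 0.32; edgeR adjusted p = 0.00062), a repressor, and the homeobox genes Meis1 (-1.18 ± 0.12; 4.7e-05) and Hoxa9 (-0.75 ± 0.11; 0.00076), partners known to drive this leukemia. Gfi1b and Meis1 were the 2 of that list that also fell in Low. Of 10 surface genes tested, 4 fell, including Flt3 (-5.89 ± 0.28; edgeR adjusted p = 5.5e-07) and Ly6a, while Kit, the receptor of stem cell factor, rose (0.68 ± 0.11; 0.0014). The lists' medians were 0.14, -0.39 and -0.47 for the heptad partners, the nuclear factors and the surface genes.

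Among the paralogs of Hlf and the other members outside the ETS family, Nfil3 fell (log2 -0.84 ± 0.14; edgeR adjusted p = 0.0016) and Podxl, a sialomucin of the CD34 family, rose (1.76 ± 0.28; 0.001), of 8 tested. Of 17 other ETS genes, 4 rose and 5 fell. Ets1 (1.86 ± 0.23; edgeR adjusted p = 0.00019), Spi1 (0.77 ± 0.12; 0.00082), which encodes PU.1, and Ets2 rose as Fli1 did, and Spib, Etv4 and Elk3 fell. None of the 8 cofactors passed with edgeR or DESeq2 over all 6 libraries, and 1 had an unadjusted p under 0.05 with either tool. Of 9 RNA-binding regulators tested beside Msi2, Lin28a rose (1.76 ± 0.23; 0.00023) and Lin28b fell (-1.99 ± 0.58; 0.036). No gene of that list fell with DESeq2, without the block, with a filter at 1 CPM, or without the NT or the High library of K3174. The medians of the last 4 lists, in this order, were -0.21, -0.08, -0.12 and -0.04.

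**Figure D4:**
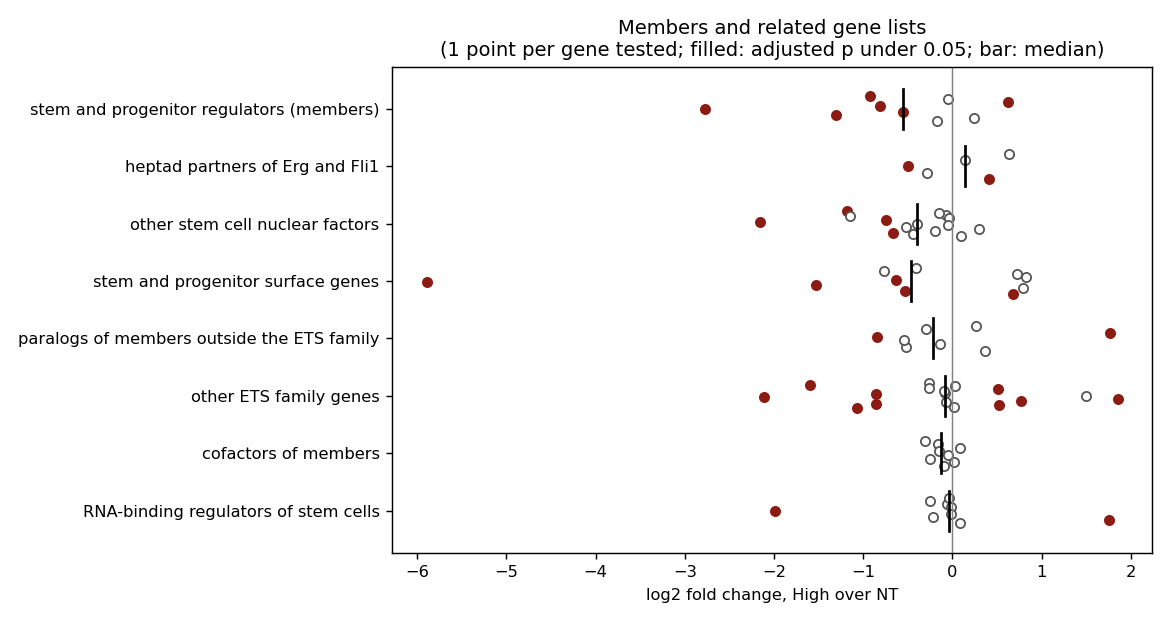
Log2 fold change of High over NT for each gene tested among the members and 7 related lists, with 1 point per gene, filled where the edgeR adjusted p was under 0.05, and a bar at each median. The members' median of -0.55 was the lowest of the 8 rows, and Flt3 was the point at -5.89. Members and lists were chosen with earlier results of these data known, and some genes stand in more than 1 list. The order of the medians is therefore a description only.

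Markers of myeloid cells also differed between the labels. Summed over 12 neutrophil genes, the level in NT, Low and High was 2696, 6966 and 12745 CPM in K3174. In K3117 it was 1216, 3338 and 6003 CPM, and 11 of the 12 rose in High over NT. In NT and Low of either leukemia, most of this sum came from Mpo, Elane, Prtn3 and Ctsg. In K3174 these had 526.1, 232.7, 600.1 and 1195 CPM in NT and 1989, 955.3, 1265 and 1417 CPM in Low. In K3117 they had 30.5, 59.4, 250.5 and 853.9 CPM in NT and 579.3, 513.6, 745.8 and 1342 CPM in Low. Summed mast cell and basophil markers, of which Gata2 is also a heptad partner, had 206, 281 and 858 CPM in K3174 and 121, 186 and 474 CPM in K3117. Of these, 6 of 8 tested were higher in High over NT. In Low over NT, 1 was higher (Hdc) and 1 lower (Prss34), with a list median of -0.27. The larger sum in Low came from Hdc, with 44.1 CPM in NT and 172.8 in Low of K3174, and 22.4 and 74.2 in K3117. Of the 10 monocyte and macrophage markers, 5 rose and 3 fell in High over NT. The summed neutrophil level followed the order NT, Low, High in either leukemia, opposite to Hlf, Mecom and Msi2 and the same as Fli1, and its part in these differences was not tested.

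Most defining markers of endothelial and stromal cells, which can carry Erg, Fli1 or Cd34, were low. Of 9 endothelial genes, Tek, Emcn and Sox17 had no count in any library and Cdh5, Kdr, Tie1 and Esam stayed under 1 CPM in every library. The summed endothelial level in NT, Low and High, 159, 131 and 117 CPM in K3174 and 203, 220 and 186 CPM in K3117, came from Pecam1 and Egfl7, which blood cells also express. Stromal genes summed to between 11.3 and 18.6 CPM per library, with Col1a2, Col3a1, Cxcl12 and Lum at 0. Cd3e, Cd8a and Ncr1 of the T and NK cell list and Ms4a1 of the B cell list had no count either, but other genes of these lists were present and fell in High over NT. Ighm had 51.7 and 48.6 CPM in High against 150.4 and 238.9 CPM in NT for K3174 and K3117, and Cd28 had 15.9 and 38.2 CPM against 48.5 and 54.5 CPM. Of the genes tested, 2 of 2 fell in the T and NK cell list and 2 of 4 in the B cell list, and their part in the members' differences was not tested. The megakaryocyte list had 2 genes higher and 0 lower in High over NT, and the erythroid list 1 higher and 1 lower, with an erythroid sum of 629 to 849 CPM that was mostly Tfrc. Genes on the opposite strand share exon bases with Mecom, Sox4, Myb and Cd34. Since the use of strand in the counting was not given, reads of these pairs cannot be told apart. Their counts were small: Mecomos, opposite Mecom, had at most 3 and the gene opposite Sox4 had 0. The gene opposite Myb had between 9 and 57, and the gene opposite Cd34 between 13 and 50 per library.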

How the data were processed

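Paired reads of 150 bp came from an Illumina HiSeq for the 6 libraries, per the labels' protocols. The authors deposited whole-number counts per gene, 1 column per library, used as deposited. Per the submitters' processing notes, the build was mm10 and the tools included kallisto, STAR, DESeq2 and STAR-Fusion, with no role or version given; the counter, annotation and use of strand were not given in the sources used here. Symbols matched 99.5% of the 49585 gene IDs, and 23286 IDs had no count. Positions are from GENCODE on GRCm38, and promoter sequences from RefSeq on GRCm38.p6, with entries for 8 of the 10 members. Exon unions gave the lengths for RPKM.

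Counts were fitted in R 4.3.3 with edgeR 4.0.16: expression filter (15812 genes), TMM factors (0.973 to 1.04), quasi-likelihood model with labels and leukemia over all 6 libraries (2 residual and 9.38 prior degrees of freedom, biological coefficient of variation 12.0%), threshold 0.05 after Benjamini-Hochberg adjustment. Within-leukemia log2 CPM used a prior count of 2. The leukemia block follows the K numbers of the titles; deviations from group means correlated across genes at 0.57 (Low and NT), 0.44 (High and NT) and 0.64 (High and Low). Every pair of libraries differed beyond sampling noise, the lowest chi-square being 26.9 for each degree of freedom. Intervals and floors cover counting error or fitted spread only.

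Members and lists were chosen with earlier results of these data known. All members were named; of each related list, the text gives up to 3 genes that rose and 3 that fell, by size of fold change, among those past the threshold with a mean of at least 1 CPM in the higher group. A gene that this rule names is not reported here. Alternatives were other scalings, other filters, DESeq2 1.42.0, no block and leaving out each library.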

Additional observations from a re-analysis of the deposited data

How the results depend on the processing

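No call of a member turned to the opposite direction. Over the label comparisons, 351 alternative values of single members gave 307 with the same direction and side of the threshold, 21 that lost and 14 that gained a call, and 9 of uncalled values that changed sign when 1 library was left out. These log2 values ranged, over leaving out each library, from -0.30 to 0.20 for Hhex in High over NT, and in Low over NT from -0.46 to 0.037 for Hhex, -0.33 to 0.16 for Sox4 and -0.64 to 0.14 for Cd34. In High over Low they ranged from -0.18 to 0.064 for Erg, -0.039 to 0.35 for Hhex and -0.044 to 0.18 for Myb. Between leukemias 108 values gave 93, 10 and 5. Without the replicate block, High over NT called 493 genes in place of 2741, Low over NT 0 in place of 528 and High over Low 0 in place of 866 with edgeR, with 950 and 1238 genes of the last 2 comparisons at an unadjusted p under 0.05. No member was then called, 0 in each of the 3 comparisons, with 4, 1 and 1 members at an unadjusted p under 0.05. With no filter on low counts, Low over NT called 1071 genes and 2 members, High over Low 1425 genes, and the trend by leukemia 1 member, Cd34. With DESeq2, Low over NT called 2 members. Leaving out 1 library at a time gave between 1927 and 4394 genes for High over NT, 144 to 1483 for Low over NT and 335 to 1982 for High over Low. The members called ranged from 1 to 3 for Low over NT, 1 to 4 for High over Low and 2 to 5 between leukemias. For High over NT, leaving out single libraries lost the calls of Fli1 and Msi2 and gained a call of Myb. The log2 fold changes over these fits ranged from 0.56 to 0.69 for Fli1, -0.65 to -0.45 for Msi2 and 0.087 to 0.41 for Myb. Of the counts of related lists, 48 of 182 moved by over 1.5 times. Upper quartile factors put the median of all genes at -0.11 (log2) for High over NT. The trend was not refitted without single libraries. With 2 libraries per label, the 95% intervals of Erg, Hhex and Myb for High over NT include no change, and a difference in Mn1 was not detectable at this depth.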

Other observations

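For each member, the gene whose log2 CPM over the 6 libraries followed it most closely was looked up among 9987 genes with a mean of at least 5 CPM, as a description of these libraries. The highest Pearson r lay between 0.989 and 0.999, values that 6 libraries reach easily among so many genes. Hlf was followed most closely by Akap17b (r = 0.998), Mecom by Cenpv (0.995), Erg by Nek9 (0.991), Fli1 by Glt1d1 (0.998) and Hhex by Srsf5 (0.989). Sox4 was followed by Jrk (0.998), Myb by Zfp7 (0.998), Msi2 by Tmem67 (0.999) and Cd34 by Aatf (0.995). No member was the closest gene of another.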
